A study of Homo sapiens and Mus musculus with 20 samples.

Results

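The plasminogen activator system was described here through 7 genes, PLAU, PLAT, PLAUR, SERPINE2, SERPINB2, TFPI2 and SERPINF1, chosen by symbol from the 17554 human genes listed in at least 1 of 3 RNA-seq experiments on IMR90 cells. All 7 were listed in each experiment, among 16683 genes for A485, 16417 for MS-275 and 12013 for pyruvate, and all 7 passed a mean of at least 10 normalized reads over the 4 libraries of an experiment. The members were picked with results of these same 3 contrasts in view, so their values below are a description with no test. IMR90 is a human lung fibroblast line, labelled WT in every group. The cells received A485, an inhibitor of the acetyltransferase p300, MS-275, which blocks the class I histone deacetylases, or pyruvate, which the study gave to senescent IMR90 cells, each against its own untreated control (Control2, Control3 and Control6). Every group held 2 libraries, numbered replicate 1 and replicate 2. The study asked how histone lactylation, a lactate-derived mark on histones, bears on cellular senescence. The series also holds muscle of WT mice that were given MS-275 or sodium lactate (NALA), with 2 libraries a group and separate untreated controls (Control4 and Control5).

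Summed over listed genes, depth was 24179065 to 46971227 reads in the 12 IMR90 libraries and 10836858 to 14190054 in the 8 from muscle. Values are normalized read counts, that is, reads per gene divided by a factor for each library. No source states that replicates were separate cultures, so the spread between libraries, and every p-value below, may be technical. All 7 fibroblast markers (COL1A1, COL1A2, VIM, PDGFRB, THY1, DCN and LUM) were listed in every IMR90 experiment. Of the markers of other cell types, PECAM1, CDH5, CDH1, PTPRC, CD68 and CD3E were not listed in any. The epithelial markers KRT8 and, except in the pyruvate experiment, EPCAM were listed. They summed to 13.75 to 42.97 per 1000000 listed reads (ppm). The endothelial marker VWF was listed in every experiment, from 0 ppm after A485 to 5.54 in Control6. The summed fibroblast markers were 28420 to 29470 ppm in Control2 and 11750 to 12400 after A485. They were 16350 to 27660 in Control3 and 12950 to 23670 after MS-275, and 26550 to 26840 in Control6 and 30170 to 30180 after pyruvate. Their part in the member values was not tested, and in bulk RNA fewer cells of a type and less RNA per cell cannot be told apart.

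Plasminogen is an inactive protease that circulates in blood and fills tissues. It is cut to plasmin, which dissolves fibrin and degrades matrix, by urokinase (PLAU) and by tissue plasminogen activator (PLAT). The urokinase receptor (PLAUR) holds urokinase at the cell surface and so places plasmin at the leading edge of moving cells. Serpins trap these proteases: protease nexin 1 (SERPINE2) acts on thrombin and urokinase, and PAI-2 (SERPINB2) acts on urokinase. TFPI2 is a Kunitz-type inhibitor that sits in the matrix and blocks plasmin. SERPINF1 encodes PEDF, a secreted serpin that does not inhibit proteases and is known for blocking blood vessel growth. Several of these proteins are secreted by senescent fibroblasts.

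The stretch of 250 bases before the RefSeq start was read for the 5 members in the promoter table (GRCh38.p14). PLAT and SERPINF1 are not in that table. Sequences are shown for PLAU, which had the largest difference after A485, and for PLAUR and TFPI2, whose windows hold the letters TGANTCA. These letters were searched for AP-1 with N as any base, which is looser than the usual AP-1 motif. Capitals mark matches to the motifs searched on both strands, and each sequence runs 5′ to 3′ on the gene's own strand. The windows are chr10:73910360-73910609 for PLAU (plus strand), chr19:43670170-43670419 for PLAUR (minus strand) and chr7:93890754-93891003 for TFPI2 (minus strand).
PLAU: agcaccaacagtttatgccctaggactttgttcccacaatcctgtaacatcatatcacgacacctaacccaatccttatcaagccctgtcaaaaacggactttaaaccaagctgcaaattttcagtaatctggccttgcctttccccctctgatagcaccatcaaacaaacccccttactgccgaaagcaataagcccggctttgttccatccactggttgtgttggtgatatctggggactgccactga
PLAUR: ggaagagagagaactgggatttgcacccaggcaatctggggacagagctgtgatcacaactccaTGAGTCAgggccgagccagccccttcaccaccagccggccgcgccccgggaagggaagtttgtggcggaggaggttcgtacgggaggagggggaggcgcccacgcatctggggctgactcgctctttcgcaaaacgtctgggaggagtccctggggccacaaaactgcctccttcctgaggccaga
TFPI2: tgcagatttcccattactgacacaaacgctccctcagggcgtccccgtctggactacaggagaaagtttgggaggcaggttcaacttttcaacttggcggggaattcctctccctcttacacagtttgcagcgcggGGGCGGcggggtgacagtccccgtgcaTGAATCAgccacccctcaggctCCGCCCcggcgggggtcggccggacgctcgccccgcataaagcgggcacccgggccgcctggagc
The motifs searched, none of which contains another, were TATAAA for the site bound by the TATA-binding protein, TGANTCA for AP-1, TGACGTCA for the cyclic AMP response and GGGCGG for the GC box. PLAUR held TGAGTCA 186 bases before the start, SERPINB2 held TGAATCA at 102 bases and TATAAA at 30 bases, and TFPI2 held TGAATCA at 87 bases with GC boxes at 114 and 65 bases. SERPINE2 held 1 GC box at 50 bases, and the PLAU window held none of them. Of 35116 promoters of this length, 6.57% held TGANTCA, 10.7% TATAAA, 42.6% GGGCGG and 1.65% TGACGTCA. The RefSeq start of TFPI2 is the start of the GENCODE gene, whereas those of PLAUR, PLAU, SERPINE2 and SERPINB2 lie 378, 1433, 7840 and 16013 bases inside it, so another start of those genes may have other letters before it.

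In hg38 with GENCODE coordinates, PLAU lies on chromosome 10 at 73909177 to 73917496 (plus strand) and PLAT on chromosome 8 at 42174718 to 42207709 (minus strand). PLAUR lies on chromosome 19 at 43646095 to 43670547 (minus strand), SERPINE2 on chromosome 2 at 223975045 to 224039318 (minus strand) and SERPINB2 on chromosome 18 at 63871692 to 63903888 (plus strand). TFPI2 lies on chromosome 7 at 93885396 to 93890753 (minus strand) and SERPINF1 on chromosome 17 at 1762029 to 1777565 (plus strand), so no pair of members shares a chromosome. PLAU overlaps the lncRNA C10orf55 on the opposite strand, and the strand setting of the read counting was not given in the sources used here. C10orf55 was listed at 20.3 and 18.4 in Control2, 0 and 5.34 after A485, 37.6 and 43.5 in Control3, and 21.3 and 26.9 after MS-275.

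In the 3 controls the activators were the most abundant members by group mean. Per kilobase of the longest transcript, and within an experiment, PLAU stood first in Control2 at 7537 ± 462 (SD, n = 2) normalized reads and in Control3 at 7501 ± 311. PLAT was second in both, at 2427 ± 1796 and 3957 ± 2422. Its spread between replicates took in PLAUR at 2217 ± 347 in Control2 and SERPINF1 at 2654 ± 609 in Control3. In Control2 replicate 1 PLAT, at 1157, lay below PLAUR at 2463 and TFPI2 at 1406. In Control6 the order of the activators was the other way round, with PLAT at 23078 ± 124 and PLAU at 10625 ± 262. SERPINB2 was lowest in all 3 controls, at 267 ± 50.4, 223 ± 228 and 141 ± 22.1. Experiments were normalized apart, and as a share of listed reads PLAT made up 92.7 and 267 ppm in Control2, 185 and 473 in Control3, and 2687 and 2726 in Control6. By normalized reads, PLAT and SERPINF1 varied between untreated replicates by 3.20-fold and 3.30-fold in Control2, where PLAU varied by 1.09-fold.

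**Figure D1:**
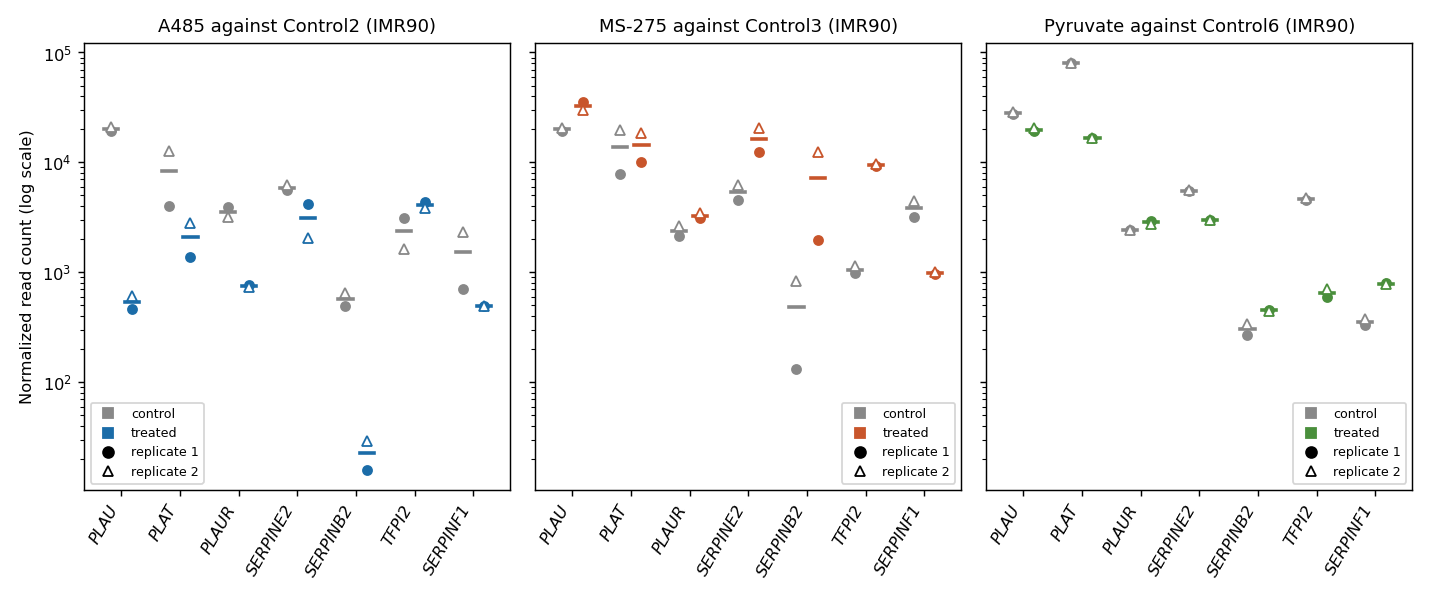
Normalized read count of each member (log axis) in the 4 libraries of each IMR90 experiment; circles are replicate 1, triangles replicate 2, short lines the group mean. PLAU after A485 (459 and 612) sits far below Control2 (19166 and 20903), and SERPINB2 is the member whose replicates lie widest apart in the MS-275 experiment.

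A485 was compared with Control2 to ask what inhibition of p300 did. Of the 7 members 6 were lower, each by more than 1 on the log2 scale, and TFPI2 was higher. Over all 16084 genes tested, 14% lay below a log2 fold change of -1, a count from which nothing is read here because this contrast chose the members. All 7 members had treated libraries entirely on one side of the controls, as 61% of all genes did. The median log2 fold change was -1.87 over the members and 0.0088 over all genes. Equal library totals in place of the deposited normalization raised the median of all genes by 0.39, and every member kept its direction. SERPINE2 lay just past 1 and came to -0.61 with equal totals and -0.84 with quantile normalization. Mitochondrial genes took 4.09 and 5.34% of the listed reads in Control2 and 5.46 and 6.90% after A485, and their part in the member values was not tested.

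PLAU, the urokinase gene, was read at 19166 and 20903 in Control2 and at 459 and 612 after A485. Both treated libraries were a small fraction of either control, a 37.7-fold lower level (log2 fold change -5.24, SE 0.20). Only 0.578% of all genes had a lower log2 fold change. PLAUR, the urokinase receptor, was read at 3965 and 3175 in Control2 and at 774 and 739 after A485, which is 4.69-fold lower (log2 fold change -2.23, SE 0.19). The enzyme and its receptor were thus both lower in both treated libraries. PLAT, the tissue activator, was read at 4006 and 12799 in Control2 and at 1377 and 2783 after A485 (log2 fold change -1.87, SE 0.58). The control replicates lay further apart than the treated ones, and the difference was -2.71 without Control2 replicate 1 and -1.03 without Control2 replicate 2.

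Among the inhibitors, SERPINB2, which traps urokinase, was read at 498 and 651 in Control2 and at 16.0 and 29.4 after A485. This was a 25.1-fold lower level, with a log2 fold change of -4.65 (SE 0.44). SERPINE2, protease nexin 1, was read at 5572 and 6234 in Control2 and at 4197 and 2047 after A485. Its log2 fold change of -1.01 (SE 0.34) moved to -1.53 without A485 replicate 1 and to -0.49 without A485 replicate 2, so 1 library set much of its size. TFPI2, the matrix inhibitor of plasmin, was read at 3102 and 1613 in Control2 and at 4320 and 3816 after A485. It was the member above its controls, by a log2 fold change of 0.86 (SE 0.32), which ran from 0.39 to 1.33 when either Control2 library was left out. SERPINF1, which encodes PEDF, was read at 710 and 2341 in Control2 and at 495 and 493 after A485 (log2 fold change -1.38, SE 0.53). The treated libraries were near equal and the controls were not: the difference was -2.24 without Control2 replicate 1 and -0.52 without Control2 replicate 2.

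After A485 the order of levels per kilobase changed accordingly. TFPI2 came first at 1843 ± 162 normalized reads, PLAT second at 601 ± 287 and PLAU sixth at 202 ± 40.6, above SERPINB2 at 10.5 ± 4.39. The spread of PLAT took in SERPINE2 at 521 ± 254, PLAUR at 470 ± 15.1 and SERPINF1 at 343 ± 1.07, so the second place was not resolved. By the union of all exons in place of the longest transcript, TFPI2 was again first, SERPINE2 ranked 2, PLAT 3 and PLAU 4.

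MS-275 was compared with Control3 to ask what inhibition of class I deacetylases did. Of the 7 members 6 were higher and SERPINF1 was lower, with 3 above a log2 fold change of 1 (SERPINE2, SERPINB2 and TFPI2) and 1 below -1. Over all 15883 genes tested, 9.75% lay above 1 and 7.65% below -1. The treated libraries of 6 members lay on one side of the controls, against 38.9% of all genes, and those of PLAT did not. The median log2 fold change was 0.71 over the members and -0.0084 over all genes. The mitochondrial share overlapped, at 4.05 and 2.77% in Control3 and 4.48 and 3.70% after MS-275.

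TFPI2 was read at 976 and 1140 in Control3 and at 9222 and 9753 after MS-275. The replicates of each group were close and the groups far apart, an 8.99-fold higher level (log2 fold change 3.17, SE 0.30). SERPINB2 was read at 132 and 828 in Control3 and at 1959 and 12551 after MS-275. Replicate 2 was 6.28-fold above replicate 1 in the controls and 6.41-fold above it after MS-275, while the difference within a replicate number was 14.8-fold for number 1 and 15.1-fold for number 2. Its log2 fold change of 3.90 therefore had an SE of 1.25, and ran from 2.56 without MS-275 replicate 2 to 5.24 without MS-275 replicate 1. SERPINE2 was read at 4550 and 6198 in Control3 and at 12312 and 20546 after MS-275, higher in both treated libraries (log2 fold change 1.58, SE 0.40). SERPINF1 was read at 3197 and 4436 in Control3 and at 971 and 1008 after MS-275, the 1 member below its controls (log2 fold change -1.93, SE 0.33).

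The activators and the receptor differed less. PLAU was read at 19353 and 20522 in Control3 and at 35113 and 30164 after MS-275 (log2 fold change 0.71, SE 0.29). PLAUR was read at 2128 and 2647 in Control3 and at 3095 and 3462 after MS-275 (log2 fold change 0.46, SE 0.31). Both lay above their controls, PLAU by 1.63-fold and PLAUR by 1.38-fold. PLAT was read at 7770 and 19628 in Control3 and at 10130 and 18437 after MS-275. Its groups overlapped, and the log2 fold change of 0.15 (SE 0.58) was -0.52 without Control3 replicate 1 and 0.81 without Control3 replicate 2.

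Within replicate numbers the 3 members above 1 were the same for number 1 and number 2, SERPINE2 at 1.44 and 1.73, SERPINB2 at 3.88 and 3.92 and TFPI2 at 3.24 and 3.10 on the log2 scale. Of all genes 6.81% were above 1 within both numbers. SERPINF1 was at -1.72 and -2.14, and 4.85% of all genes were below -1 within both. After MS-275 PLAU stayed first per kilobase at 12279 ± 1317 normalized reads, and TFPI2, sixth in the control at 479 ± 52.7, stood at 4299 ± 170. PLAT at 4126 ± 1697 and SERPINB2 at 3367 ± 3476 had spreads that took in the TFPI2 level, so the second place was not resolved. SERPINF1, which ranked 3 in the control at 2654 ± 609, was last at 688 ± 18.3.

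**Figure D2:**
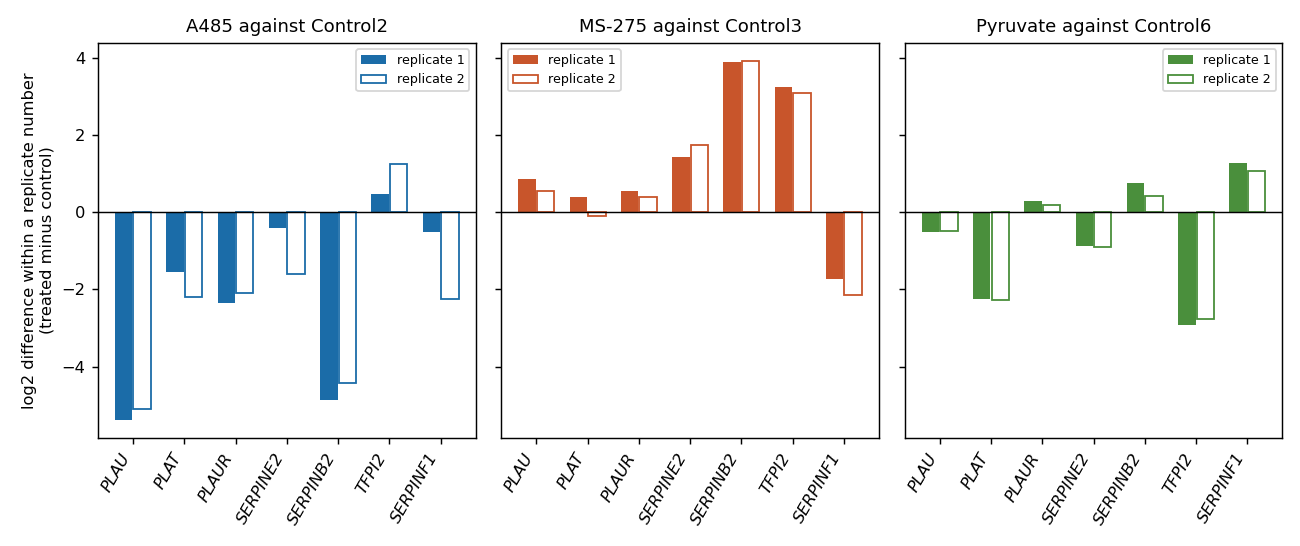
Log2 difference between treated and control library of the same replicate number for each member (filled bars number 1, open bars number 2), in the 3 IMR90 experiments. In the MS-275 panel SERPINB2 stands at 3.88 and 3.92 although its replicates differed by 6.28-fold and 6.41-fold; in the A485 panel SERPINF1 stands at -0.52 and -2.25.

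Pyruvate was compared with Control6 to ask what an added substrate of lactate synthesis did. Replicates were close, with SERPINB2 in Control6 furthest apart among the members at 1.25-fold, and all 7 members had treated libraries on one side of the controls, as 90.5% of all genes did. PLAT and TFPI2 lay below a log2 fold change of -1 and SERPINF1 above 1, 3 of 7 members, where 55% of the 12013 genes tested lay beyond 1 either way. The median log2 fold change was -0.51 over the members and -0.0069 over all genes. Mitochondrial genes took 6.69 and 6.68% of the listed reads in Control6 and 4.68 and 4.72% after pyruvate, and their part was not tested. Across genes the log2 fold change fell with GC content, with a Spearman rho of -0.70 over 11888 genes, which are not independent replicates, against -0.11 for A485 and -0.016 for MS-275. Member values with a trend on length and GC content removed are therefore given beside the main ones.

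PLAT was read at 79593 and 80201 in Control6 and at 16665 and 16518 after pyruvate. This was a 4.82-fold lower level (log2 fold change -2.27, SE 0.047, and -2.74 with the trend removed). TFPI2 was read at 4530 and 4770 in Control6 and at 593 and 702 after pyruvate, which is 7.20-fold lower (log2 fold change -2.85, SE 0.095, and -4.31 with the trend removed). Only 0.666% of all genes had a lower log2 fold change than TFPI2. SERPINF1 was read at 330 and 377 in Control6 and at 792 and 787 after pyruvate (log2 fold change 1.16, SE 0.13), with 2.14 after removal of the trend and 0.83 with quantile normalization, under which 2 of 7 members lay beyond 1. Its direction was the other way from both drug experiments, in which SERPINF1 was below its controls.

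The other 4 members had log2 fold changes within 1 of 0. PLAU was read at 27747 and 28734 in Control6 and at 19343 and 20453 after pyruvate (log2 fold change -0.51, SE 0.053), and turned to 0.32 with the trend removed. SERPINE2 was read at 5486 and 5609 in Control6 and at 2984 and 3019 after pyruvate (log2 fold change -0.89, SE 0.063), with -2.60 after removal of the trend. PLAUR was read at 2410 and 2404 in Control6 and at 2959 and 2737 after pyruvate (log2 fold change 0.24, SE 0.074), with 1.21 after removal of the trend. SERPINB2 was read at 270 and 337 in Control6 and at 457 and 449 after pyruvate (log2 fold change 0.58, SE 0.16), and turned to -0.72 with the trend removed. The direction of PLAU and SERPINB2 after pyruvate thus depended on that correction, and with it 5 of 7 members lay beyond 1.

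**Figure D3:**
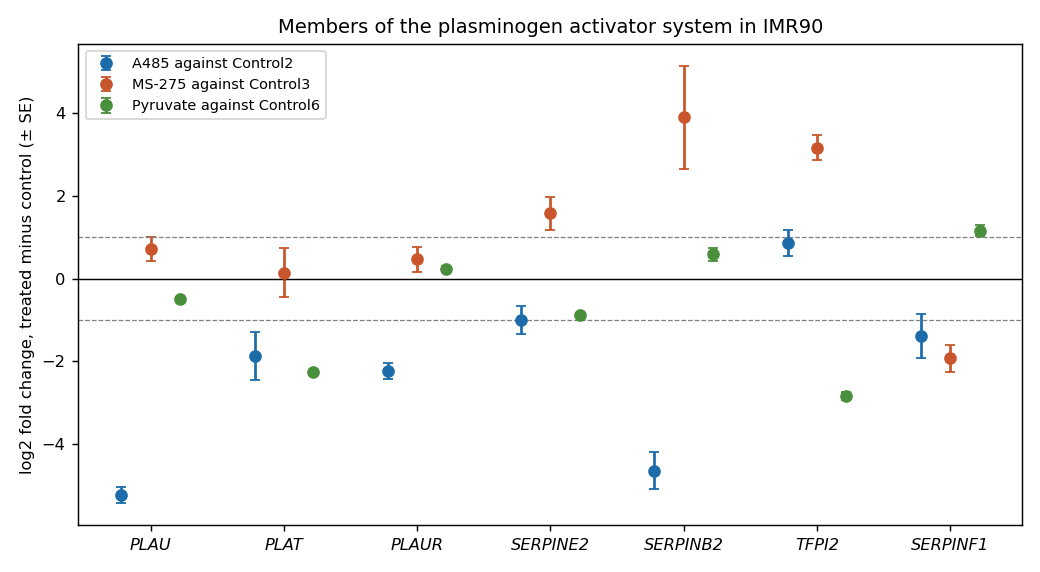
Log2 fold change of each member, treated minus control, with its SE from the fit over all genes, in the 3 IMR90 experiments; dashed lines mark 1 and -1. TFPI2 stands at 0.86, 3.17 and -2.85 after A485, MS-275 and pyruvate, and SERPINF1 at -1.38, -1.93 and 1.16.

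Side by side, the members fell into unlike patterns. PLAU and PLAUR were lower after A485 (-5.24 and -2.23 on the log2 scale), higher after MS-275 (0.71 and 0.46), and moved by -0.51 and 0.24 after pyruvate. SERPINB2 differed by -4.65 and 3.90 after the inhibitors. TFPI2 was the member above its controls after both inhibitors (0.86 and 3.17) and below after pyruvate (-2.85), and SERPINF1 showed the reverse in all 3 (-1.38, -1.93 and 1.16). Over the 12 IMR90 libraries, with each experiment centred on its own mean, Pearson's r was 0.96 between PLAU and PLAUR, 0.83 between PLAUR and SERPINB2 and -0.88 between TFPI2 and SERPINF1. These are descriptions over libraries that share treatments and normalization.

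The other genes of the pathway came from a list of 40 in 3 roles: activation and receptors, inhibitors, and substrates and signalling. They were tested with limma over all genes and called at a Benjamini-Hochberg adjusted p under 0.05 with a log2 fold change beyond 1. The list was set with earlier results of these data known, so its calls are not independent support for the member values. After A485, 30 were tested, 3 rose and 7 fell, where 10.4% of all genes were called, 3.31% higher and 7.06% lower. Their median log2 fold change was -0.30, with -1.96 over the 10 tested in the group of substrates and signalling. In that group 6 fell: F3, tissue factor, which starts coagulation (25721 and 29325 in Control2, 484.6 and 717 after A485, log2 fold change -5.54, SE 0.23, adjusted p = 0.000812), HGF, hepatocyte growth factor, which urokinase can activate (-4.76, SE 0.29, adjusted p = 0.0012), and THBS1, LTBP1, FN1 and F2R with -2.83, -2.60, -2.03 and -1.88. F2R encodes a thrombin receptor and the other 3 encode matrix proteins.

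Of the 10 other inhibitors tested after A485, 3 rose. SPINT1, an inhibitor of the enzyme that activates HGF, rose by 3.17 (SE 0.35, adjusted p = 0.00568), SERPINI1, neuroserpin, which traps tissue activator, rose by 2.06 (SE 0.34, adjusted p = 0.0177) and SERPINB1 rose by 1.23 (SE 0.17, adjusted p = 0.0103), all on the log2 scale. In the group of activation and receptors, 1 of 10 fell, ENO1, a glycolytic enzyme that also binds plasminogen at the cell surface (-1.56, SE 0.21, adjusted p = 0.01). Without A485 replicate 1 the 10 calls came to 2, and without A485 replicate 2 to 3. FN1 and SERPINI1 were not called when any 1 of the 4 libraries was left out. With quantile normalization ENO1 stood at -0.82 and was not called.

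After MS-275 none of the 30 other pathway genes tested was called by limma without a replicate block. Nor was any of the 15883 genes tested (0%), and 4 and 1730 had an unadjusted p under 0.05. Libraries of the same number deviated together (correlation 0.73). With replicate number as a block, limma called 2183 of all genes and 6 of the other pathway genes. No label says that the numbers mark pairs, so both fits are given. Without the block, the smallest adjusted p by role belonged to CTSB, cathepsin B (log2 fold change 1.09, SE 0.40, adjusted p = 0.432), to SERPINI1 (2.14, SE 0.49, adjusted p = 0.27) and to F3 (1.14, SE 0.30, adjusted p = 0.303). With the block, the limma adjusted p was 1.01e-06 for CTSB, 5.26e-06 for SERPINI1 and 2.37e-07 for F3. F3 was read at 15335 and 18977 in Control3 and at 35926 and 39551 after MS-275, so its groups did not overlap. Without Control3 replicate 1 SERPINI1 was called (2.64, limma adjusted p = 0.041).

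After pyruvate, 26 were tested, 9 rose and 5 fell, where 54.1% of all genes were called, 31% higher and 23.1% lower. Of 8 inhibitors 6 rose, and 3 of these kept their call with quantile normalization. The inhibitors that rose were SERPINB9 (2.98), SERPINB8 (2.32), TFPI (1.39), A2M (1.38), SERPING1 (1.16) and SPINT1 (1.13), and TFPI, which blocks tissue factor, turned to -0.30 with the length and GC trend removed. SPINT1 was not called without Control6 replicate 2 or without either pyruvate library, A2M not without pyruvate replicate 2, and SERPING1 not without Control6 replicate 1. With quantile normalization SERPING1 stood at 0.52, A2M at 0.9999 and SPINT1 at 0.80, and none of these 3 was called. SPINT1 was also not called with a pseudocount of 10 (0.91). In the group of activation and receptors PLGRKT, a plasminogen receptor, rose (1.50, SE 0.22, adjusted p = 6.14e-05), and LRP1 and IGF2R, which take up complexes from the cell surface, fell (-1.22 and -1.30). With quantile normalization these came to 0.84, -0.66 and -0.84, and none was called.

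Among substrates and signalling, F2RL1 and F2R, receptors that proteases switch on, rose after pyruvate (3.07, adjusted p = 2.89e-09, and 1.44, adjusted p = 1.73e-09). F3, MST1 and PROCR fell (-1.18, -1.86 and -1.04). With the trend removed F2R stood at 0.49, LRP1 at -0.66, MST1 at -0.96, PLGRKT at 0.42 and PROCR at -0.28, and none of these 5 was called. With equal library totals F3, IGF2R, LRP1 and PROCR stood at -0.87, -0.99, -0.91 and -0.73 and were not called. F3 was also not called with quantile normalization (-0.76), and PROCR was not called without Control6 replicate 2 or pyruvate replicate 2.

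**Figure D4:**
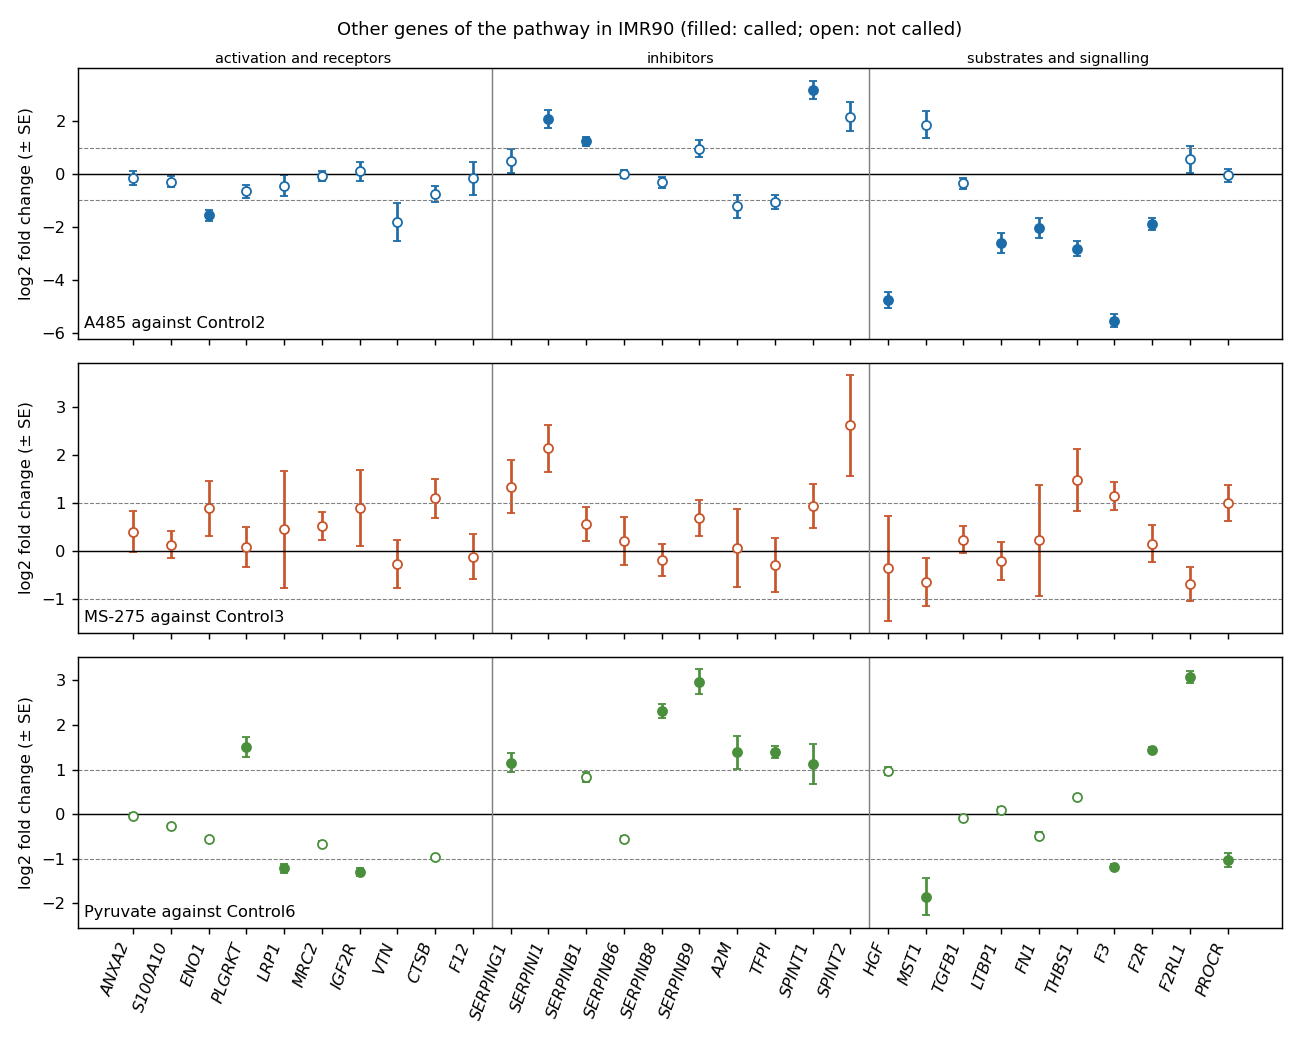
Log2 fold change, treated minus control, with its SE, of the other pathway genes tested in each IMR90 experiment, by role; filled points were called, open points were not, and each panel has its own axis. After A485 the filled points among substrates and signalling lie between -1.88 and -5.54. Calls are from the fit without a replicate block, in which no point is filled after MS-275.

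The mouse files give a comparison outside the contrasts that chose the members, with a limit on what their rows hold. In the labelled muscle the fibre markers Acta1 and Tnnt3 were not listed. Ckm took 1.01 to 10.3 ppm of the listed reads, Myh4 7.16 to 83.1 and Mylpf 32.9 to 233. By contrast, Myh13 took 39914 to 103013 ppm and Doc2a 19935 to 37790. Whether values under a mouse symbol come from the named gene was not tested. The markers of other cell types that were listed summed to 56.6 to 63.3 ppm in Control4 and 121 to 174 after MS-275, and the share of listed reads from mitochondrial genes was 39.0 and 30.8% in Control4 but 22.002 and 21.95% in the MS-275 libraries. For NALA that share was 29.7 and 30.9% in Control5 and 31.7 and 33.5% in treated muscle. There the listed markers of other cell types summed to 73.6 to 78.9 ppm in Control5 and 89.4 to 95.3 after NALA. The part of either measure was not tested. Serpine2, Tfpi2 and Serpinf1 were listed, and the other 4 counterparts, Plau, Plat, Plaur and Serpinb2, were not listed in either muscle experiment. After MS-275 the values under Tfpi2 were 10.4 and 28.8 in Control4 and 82.8 and 163 in treated muscle, low counts that rose by 2.67 on the log2 scale (SE 0.61, limma adjusted p = 0.0347), where 16.2% of all genes were called. That call was lost without Control4 replicate 1 (1.98, adjusted p = 0.118), without MS-275 replicate 1 (3.16, adjusted p = 0.0863) and without MS-275 replicate 2 (2.19, adjusted p = 0.163).

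The values under Serpine2 were 2946 and 2833 in Control4 and 1424 and 2663 after MS-275 (log2 fold change -0.57, limma adjusted p = 0.294), and those under Serpinf1 were 2169 and 2142 against 1441 and 1709 (-0.46, limma adjusted p = 0.234). Neither passed, Serpine2 was called without MS-275 replicate 2 (-1.02, limma adjusted p = 0.0497), and both turned with equal library totals, to 0.39 and 0.50. After NALA, where 3.35% of all genes were called, the values under Serpine2 were 2137 and 2056 in Control5 and 1661 and 1758 in treated muscle. This difference passed the p threshold but not the fold minimum (log2 fold change -0.29, SE 0.062, limma adjusted p = 0.000946). Tfpi2 and Serpinf1 did not pass after NALA, with log2 fold changes of -0.52 (limma adjusted p = 0.585) and -0.043 (limma adjusted p = 0.707), and Serpinf1 turned to 0.15 with equal library totals.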

How the data were processed

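RNA-seq libraries of IMR90 cells (12) and mouse muscle (8) were analysed. Per the labels and methods, the authors trimmed reads with Trim Galore (0.6.10), aligned them with HISAT2 (2.2.1) to hg38 or mm10, counted reads per gene with featureCounts (2.0.6; annotation and strand setting not given in the sources used here) and normalized them with DESeq2 (1.34.0). The deposited values are a signal, reads divided by a size factor for each library, and each experiment was normalized on its own. Dividing by the smallest step returned whole reads for 100% of values (tolerance 0.01).

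Each treatment was compared with its own control by limma (3.58.1; lmFit and eBayes with trend, R 4.3.3) on log2(value + 1) for genes with a mean of at least 10, with Benjamini-Hochberg adjustment over all genes tested. Fold changes are on that scale, which understates changes of low genes. Genes were called at an adjusted p under 0.05 and a log2 fold change beyond 1. The fit was run on simulated data with 200 changed genes, as a check that the simulated size of change came back. Simulated libraries had no effect shared by a replicate number, so the check cannot speak for data with such an effect. Counts of recovered reads were tested with edgeR (4.0.16) and DESeq2 (1.42.0) for A485 and both muscle comparisons; for MS-275 and pyruvate in IMR90 the count tests were not run. Alternatives changed the pseudocount, the filter, the scaling, the length and GC trend, the replicate block, the fold minimum (0.58) and each library in turn.

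The members, lists and markers were chosen with earlier results of these data known. Named were the 7 members, their mouse counterparts, the other pathway genes called in an IMR90 comparison or, in a role without a call, the one with the smallest adjusted p, and the 3 genes most alike to each member by Pearson's r among genes with a mean of at least 100. C10orf55 and the mouse genes Myh13 and Doc2a were named after their values were seen. 1 gene of the pathway list is not reported here. Replicates differed by more than sampling noise (chi-square per gene 3.85 to 456), so no library was a copy. Positions came from GENCODE and promoters from RefSeq (GRCh38.p14).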

Additional observations from a re-analysis of the deposited data

Results flagged for a closer look

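SERPINE2 after MS-275 lay above both controls in both treated IMR90 libraries, with a log2 fold change of 1.582, and the values under Serpine2 after MS-275 lay below both controls in both treated muscle libraries, with -0.5688. The difference between the 2 systems was not tested. With equal library totals the muscle value was 0.39, on the same side as IMR90, and whether the muscle rows hold the named gene was not tested.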

How the results depend on the processing

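Values with 2 libraries a group leave little room for precision. Of the log2 fold changes of members under all alternatives, 94 of those for A485, 81 for MS-275 and 64 for pyruvate did not move beyond the spread between replicates, and 4, 3 and 20 did. Much of this count was fixed in advance, so it is no measure of stability. The filter and the replicate block leave a member's fold change unchanged. With 2 libraries a group, leaving 1 out cannot move it beyond that spread. For A485 the 1667 genes called became 2584 with equal library totals and 229 to 1284 with 1 library left out (lowest without A485 replicate 1), and 10 other pathway genes became 2 to 9. The split of higher against lower calls, 532 against 1135, became 1669 against 915 with equal totals and 768 against 1025 with quantile normalization. edgeR called 1664 genes and DESeq2 2325. For MS-275 the 0 genes called became 33 to 444 with 1 library left out, and the 0 other pathway genes 0 to 1. For pyruvate 6503 genes became 3641 with the length and GC trend removed, with members beyond a log2 fold change of 1 going from 3 to 5 and to 2 with quantile normalization, and 14 other pathway genes became 8 with quantile normalization; the split of 3726 against 2777 became 4402 against 1741 with equal totals. For MS-275 in muscle 1539 genes became 2974 with equal totals and 146 to 970 with 1 library left out, and edgeR and DESeq2 called 1358 and 1950. Its split of 877 against 662 became 2790 against 184 with equal totals. For NALA 298 genes became 143 with a mean of at least 50 and 590 with the lower fold minimum, and edgeR and DESeq2 called 299 and 204. Its split of 139 against 159 became 250 against 100 with equal totals. Equal totals shifted the median of all genes by 0.39 (A485), -0.14 (MS-275) and 0.31 (pyruvate) in the cells, and by 0.94 (MS-275) and 0.19 (NALA) in muscle. Values that turned were PLAT after MS-275 in IMR90 (-0.52 without Control3 replicate 1, -0.29 without MS-275 replicate 2), PLAU, SERPINB2 and TFPI after pyruvate (0.32, -0.72 and -0.30 with the trend removed), Serpine2 and Serpinf1 after MS-275 in muscle (0.39 and 0.50 with equal totals) and Serpinf1 after NALA (0.15 with equal totals, 0.0033 with quantile normalization, 0.0012 with the trend removed). The cause was not tested, beyond the fewer samples of the fits that left out a library, where a lone library is assumed to vary like the other group.

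Replicate numbers are shared by the groups, but no label says that they mark a pair, and there were 2 numbers. Libraries of the same number deviated together with a correlation of 0.32 for A485, 0.73 for MS-275 in IMR90, 0.0020 for pyruvate, -0.11 for MS-275 in muscle and -0.013 for NALA. With the replicate block the calls came to 2486 for A485, 2183 for MS-275 in IMR90, 6513 for pyruvate, 1556 for MS-275 in muscle and 311 for NALA, and the other pathway genes called after MS-275 in IMR90 to 6. These held the 3 named there by limma, CTSB (adjusted p = 1.01e-06), SERPINI1 (5.26e-06) and F3 (2.37e-07). With the numbers crossed, an alternative chosen after seeing the data, MS-275 in muscle gave 1730 calls.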

Other observations

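Genes whose pattern over the 12 IMR90 libraries was most like that of a member were looked for among 10325 genes, with each experiment centred on its own mean. These values of Pearson's r are descriptions over libraries that share treatments, depth and normalization. PLAU was most like OLR1 (0.993), STC2 (0.993) and VIM (0.992), whose log2 fold changes after A485 were -4.80, -6.66 and -1.53. OLR1 encodes a receptor for oxidized lipoprotein, STC2 a secreted glycoprotein and VIM the filament protein vimentin. PLAUR was most like ERRFI1 (0.988), MMP1 (0.982) and SLC1A5 (0.977). MMP1, the interstitial collagenase, stood at -7.33 after A485, 2.29 after MS-275 and 0.14 after pyruvate on the log2 scale.

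PLAT was most like SECTM1 (0.986), FGFR1 (0.985) and SMIM29 (0.98), which stood at -2.34, -1.29 and -1.15 after pyruvate on the log2 scale. SERPINB2 was most like RPL23AP7, a ribosomal protein pseudogene, GDF15, a secreted stress factor, and SLC31A1 (0.966, 0.963 and 0.962), and SERPINE2 was most like TPST2, PTGR1 and CALR (0.955, 0.951 and 0.949). TFPI2 was most like RAB3D (0.982), TMEM59L (0.978) and PCYOX1L (0.967), with TMEM59L at 1.12, 3.22 and -3.23 after A485, MS-275 and pyruvate. SERPINF1 was most like FOXC1 (0.963), RHOJ (0.951) and NR2F1-AS1 (0.946), which were below their controls after MS-275 (-1.16, -2.02 and -1.19) and above them after pyruvate (0.92, 1.16 and 0.96).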
